A study of Mus musculus with 6 samples.

Results

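The genes Ccr1, Ccr2, Ccr7, Ccr9, Ccrl2, Cx3cr1, Cxcr4 and Xcr1 encode chemokine receptors used by myeloid cells, and they were chosen by name. All 8 symbols matched an Ensembl ID in the deposited counts, and all 8 were among the 21849 genes tested. RNA-seq was carried out on polyA RNA of bone marrow-derived dendritic cells (BMDCs), with 3 libraries from C57BL/6 WT mice and 3 from global Nfkb2-/- mice. The deletion was carried by every marrow cell put into culture, not by dendritic cells alone. In both genotypes, femur and tibia marrow was grown for 9 days, the first 5 days with 20 ng/mL GM-CSF and the next 4 days with 20 ng/mL GM-CSF and 10 ng/mL IL-4, and the cells were left unstimulated (0 h). The study describes the libraries as independent biological replicates. The labels do not tie a library to an animal, and ages are not given in the sources used here.

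Chemokine receptors are G protein-coupled receptors that steer leukocytes along gradients of small secreted proteins. Ccr2 is known for bringing monocytes out of the bone marrow and into inflamed tissue, whereas Ccr7 is acquired by maturing dendritic cells and leads them through lymphatics to the T cell zones of lymph nodes. Nfkb2 encodes p100, the precursor of p52, which with RelB forms the transcription factor of the noncanonical NF-κB pathway. The comparison of the genotypes asks how basal receptor mRNA levels differ between BMDCs with and without this pathway.

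Levels are CPM, read counts relative to the TMM-scaled size of the library, and total counts ranged from 29863927 to 55623068 per library. Nfkb2 itself was at 215, 154 and 355 CPM in WT replicates 1, 2 and 3 and at 44.8, 32.3 and 32.6 CPM in the Nfkb2-/- replicates. The mean of each of the 10 dendritic cell markers reached 5 CPM. 2 libraries stood apart. WT replicate 3 had a summed level of the 25 monocyte and macrophage genes of 678 CPM, against 2578 to 5677 CPM in the other 5 libraries, and a summed level of the 30 mature dendritic cell genes of 41350 CPM, against 19409 to 29240 CPM. Nfkb2-/- replicate 1 had a count on 47952 genes, against 27692 to 33841 in the others. It held the highest level of all 8 T and NK cell markers and all 7 B cell markers, each of which had a mean under 1 CPM. Among all tested genes with so low a mean, 62.0% were highest in this library. Results are therefore also given without these libraries.

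Upstream sequences are shown for Ccrl2 and Cxcr4, which ran with Ccr7 across the libraries, and for Ccr1 and Ccr2, which ran with each other. They are the 250 bases before the RefSeq start (GRCm38.p6), printed 5′ to 3′ on the gene's strand, at chr9:111057519-111057768 (minus) for Ccrl2, chr1:128592300-128592549 (minus) for Cxcr4, chr9:123968693-123968942 (minus) for Ccr1 and chr9:124101933-124102182 (plus) for Ccr2. Capitals mark matches to the κB motif or to GAGGAA, the core bound by PU.1, a transcription factor of myeloid cells. Both strands were searched, and no match of these motifs overlapped another.
Ccrl2: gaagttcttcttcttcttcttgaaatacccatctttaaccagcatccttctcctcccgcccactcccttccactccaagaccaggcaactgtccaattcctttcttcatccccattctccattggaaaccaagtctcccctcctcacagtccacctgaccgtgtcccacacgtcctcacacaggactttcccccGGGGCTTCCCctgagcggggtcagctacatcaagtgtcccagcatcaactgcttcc
Cxcr4: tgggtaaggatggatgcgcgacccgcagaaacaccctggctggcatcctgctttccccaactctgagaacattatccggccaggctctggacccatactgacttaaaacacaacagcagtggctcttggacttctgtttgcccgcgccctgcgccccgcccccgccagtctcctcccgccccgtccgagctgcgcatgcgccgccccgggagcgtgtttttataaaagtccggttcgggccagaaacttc
Ccr1: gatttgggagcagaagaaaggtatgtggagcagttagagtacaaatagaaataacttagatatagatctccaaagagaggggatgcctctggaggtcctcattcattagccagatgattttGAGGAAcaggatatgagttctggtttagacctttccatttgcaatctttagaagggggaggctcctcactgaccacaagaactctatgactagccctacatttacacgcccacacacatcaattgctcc
Ccr2: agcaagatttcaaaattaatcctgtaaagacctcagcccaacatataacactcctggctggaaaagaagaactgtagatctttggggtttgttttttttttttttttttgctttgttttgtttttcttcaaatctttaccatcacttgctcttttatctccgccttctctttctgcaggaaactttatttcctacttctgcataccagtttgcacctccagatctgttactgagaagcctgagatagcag
7 of the 8 members matched a window of this kind, with 9 windows in all. No window was found for Ccr7, so the sequence upstream of Ccr7 was not searched. The Ccr2 window lies mostly inside the annotated gene, which begins at chr9:124101950, and the Ccr9 and Cx3cr1 windows lie wholly inside theirs. For these receptors, little or no sequence before the annotated gene was searched. The κB motif was matched in a single window, the Ccrl2 window printed here, at 56 to 47 bases before the start. Ccrl2 also had windows before other RefSeq starts, and these held no match. GAGGAA was matched only upstream of Ccr1, at 129 to 124 bases before the start. The spaced direct repeat bound by retinoic acid receptors, named DR5, was matched in none of the 9 windows. Of 32851 windows of the same length over all genes, 3.90% held the κB motif, 23.3% held GAGGAA and 0.00913% held DR5. With so rare an exact pattern, the lack of a DR5 match in 9 windows is uninformative. A match is a run of letters and not a measured binding site.

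None of the 8 receptors passed the test for a genotype difference, which was edgeR's quasi-likelihood test, called at 0.05 after Benjamini-Hochberg adjustment and beyond a 1.2-fold difference. Over all genes tested, 1.14% passed. DESeq2 (8.6% of all genes) and limma voom (2.23%) also called none of the 8. At an unadjusted p-value under 0.05, 2 of the 8 were lower in Nfkb2-/- libraries by edgeR, Ccr7 and Ccrl2, where 17.1% of all genes reached that value. The CPM ranges of the genotypes overlapped for all 8, whereas 24.7% of all genes tested had ranges that did not overlap. The median log2 fold change (Nfkb2-/- over WT) was 0.39 over the 8 receptors and 0.08 over all genes tested. The sign of the median over the receptors depended on the libraries that stood apart. Over the 7 receptors tested in those fits, which leave out Xcr1, the median was -0.0024 without WT replicate 3, -0.22 without Nfkb2-/- replicate 1 and -0.38 without both. The values -0.0024 and -0.22 are those of Cx3cr1, and -0.38 is that of Cxcr4. Of the 7, only Cx3cr1 changed its sign. Over all genes the median was 0.07, -0.03 and -0.02 in these fits. In these mixed cultures, fewer cells that carry a receptor and less receptor mRNA per cell cannot be told apart.

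**Figure D1:**
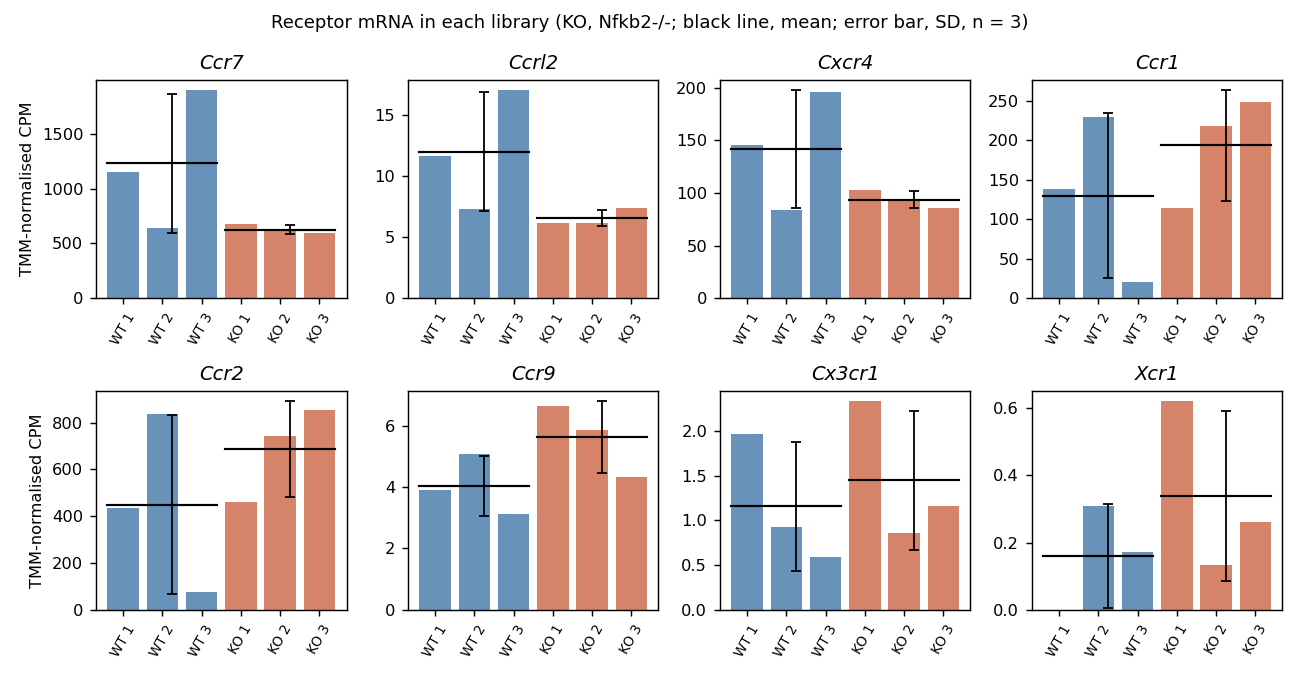
TMM-normalised CPM (linear axes from 0) of the 8 receptors in each of the 3 WT libraries (blue) and 3 Nfkb2-/- libraries (orange, written KO), with the genotype mean as a black line and the SD as an error bar (n = 3). Ccr7, Ccrl2 and Cxcr4 peak in WT replicate 3, where Ccr1 and Ccr2 are lowest, and the genotypes overlap in every panel.

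Ccr7 (ENSMUSG00000037944, chr11:99144196-99155077, minus strand), the lymph node homing receptor of mature dendritic cells, was at 1149 CPM in WT replicate 1, 640 CPM in WT replicate 2 and 1897 CPM in WT replicate 3. In Nfkb2-/- replicates 1, 2 and 3 it was at 673, 611 and 596 CPM. WT replicates 1 and 3 lay above all 3 Nfkb2-/- libraries, while WT replicate 2 lay among them. The means were 1229 ± 632 CPM in WT and 627 ± 41.0 CPM in Nfkb2-/- (SD, n = 3 each). The log2 fold change was -0.97 (SE 0.37), with an edgeR adjusted p-value of 0.235, and an exact two-sided permutation test over the 6 libraries gave p = 0.2, where 3 against 3 cannot give less than 0.1. The highest library exceeded the lowest by 2.97 times among WT libraries and by 1.13 times among Nfkb2-/- libraries.

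The Ccr7 difference moved with the WT library left out. Without WT replicate 2 the log2 fold change was -1.28 and passed the test (edgeR adjusted p = 0.0390, with 5.87% of all genes passing in that fit and 2.67% as lower). Without WT replicate 3 it was -0.51 (edgeR adjusted p = 0.406), and without WT replicate 3 and Nfkb2-/- replicate 1 it was -0.59 (edgeR adjusted p = 0.229). It was negative in all 15 alternative settings, from -1.28 to -0.51.

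Ccrl2 (ENSMUSG00000043953, chr9:111054486-111057519, minus strand) encodes an atypical receptor that binds chemerin and presents it to neighbouring cells. It was at 11.6, 7.29 and 17.0 CPM in WT replicates 1, 2 and 3 and at 6.17, 6.20 and 7.35 CPM in the Nfkb2-/- replicates. WT replicates 1 and 3 were again the highest of the 6, and WT replicate 2 lay just under the highest Nfkb2-/- library. The log2 fold change was -0.86 (SE 0.31, edgeR adjusted p = 0.211). The difference passed the test without WT replicate 2, at -1.12 (edgeR adjusted p = 0.0432), and when genes were not filtered on low counts, at -0.93 (edgeR adjusted p = 0.0406, with 3.5% of all genes passing and 1.63% as lower). Without WT replicate 3 it was -0.52 (edgeR adjusted p = 0.363).

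Cxcr4 (ENSMUSG00000045382, chr1:128588199-128592293, minus strand), the receptor for Cxcl12 that retains leukocytes in the bone marrow, was at 145, 83.9 and 196 CPM in WT replicates 1, 2 and 3. In the Nfkb2-/- replicates it was at 103, 92.7 and 86.1 CPM. WT replicate 2 was the lowest of the 6 libraries and WT replicate 3 the highest, so that the WT values enclosed all 3 Nfkb2-/- values. The log2 fold change was -0.60 (SE 0.29, edgeR adjusted p = 0.360), which became -0.29 when WT replicate 3 was left out and -0.86 when WT replicate 2 was.

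Ccr1 (ENSMUSG00000025804, chr9:123962124-123968692, minus strand), an inflammatory receptor of monocytes and neutrophils, was at 138, 229 and 21.03 CPM in WT replicates 1, 2 and 3. In the Nfkb2-/- replicates it was at 115, 218 and 248 CPM. WT replicate 3 was the lowest library by a wide margin, and the other WT libraries lay within the Nfkb2-/- range. The means were 130 ± 104 CPM in WT and 194 ± 70.0 CPM in Nfkb2-/- (SD, n = 3 each), and the log2 fold change was 0.58 (SE 0.72, edgeR adjusted p = 0.723). It was 0.08 without WT replicate 3.

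Ccr2 (ENSMUSG00000049103, chr9:124101950-124113557, plus strand) was at 436, 837 and 75.3 CPM in WT replicates 1, 2 and 3 and at 460, 744 and 855 CPM in the Nfkb2-/- replicates. As for Ccr1, WT replicate 3 was the lowest library, WT replicate 2 lay close to the highest Nfkb2-/- libraries, and WT replicate 1 lay close to Nfkb2-/- replicate 1. The log2 fold change was 0.61 (SE 0.72, edgeR adjusted p = 0.701), which became 0.11 when WT replicate 3 was left out and 1.42 when WT replicate 2 was (edgeR adjusted p = 0.339).

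Ccr9 (ENSMUSG00000029530, chr9:123678439-123784330, plus strand), the gut homing receptor for Ccl25, was at 3.91, 5.08 and 3.13 CPM in WT replicates 1, 2 and 3. In the Nfkb2-/- replicates it was at 6.65, 5.87 and 4.34 CPM. The Nfkb2-/- libraries held the higher values, but WT replicate 2 lay above Nfkb2-/- replicate 3. The log2 fold change was 0.47 (SE 0.26, edgeR adjusted p = 0.421; exact two-sided permutation p = 0.2), and over the alternatives it ran from 0.16 to 0.67. Aldh1a2, which makes retinoic acid, a known inducer of Ccr9 in T cells, was at 45.9, 94.4 and 92.4 CPM in WT and at 438, 467 and 342 CPM in Nfkb2-/- (log2 fold change 2.42, SE 0.31, edgeR adjusted p = 0.0307). The Ccr9 level is uncertain, because 19.3% of the 75-base stretches in its exons also lie in other genes, mainly AC165425.1 on the opposite strand, and the use of strand in counting is not given in the sources used here. AC165425.1 itself held at most 4 counts in a library.

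Cx3cr1 (ENSMUSG00000052336, chr9:119901616-120069879, minus strand), the fractalkine receptor of patrolling monocytes and tissue macrophages, was at 1.97, 0.923 and 0.585 CPM in WT replicates 1, 2 and 3. In the Nfkb2-/- replicates it was at 2.33, 0.857 and 1.16 CPM. Replicate 1 was the highest of each genotype. Its log2 fold change was 0.31 (SE 0.58, edgeR adjusted p = 0.822) with all libraries and -0.54 without WT replicate 3 and Nfkb2-/- replicate 1.

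Xcr1 (ENSMUSG00000060509, chr9:123852315-123862029, minus strand), the receptor that defines cross-presenting cDC1 cells, was near the limit of detection. It had 0, 10 and 5 counts in WT replicates 1, 2 and 3 and 21, 4 and 14 counts in the Nfkb2-/- replicates. The highest count came from Nfkb2-/- replicate 1, the library with a count on the most genes. With a log2 fold change of 1.08 (SE 1.30, edgeR adjusted p = 0.710), a difference was not detectable at this depth.

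**Figure D2:**
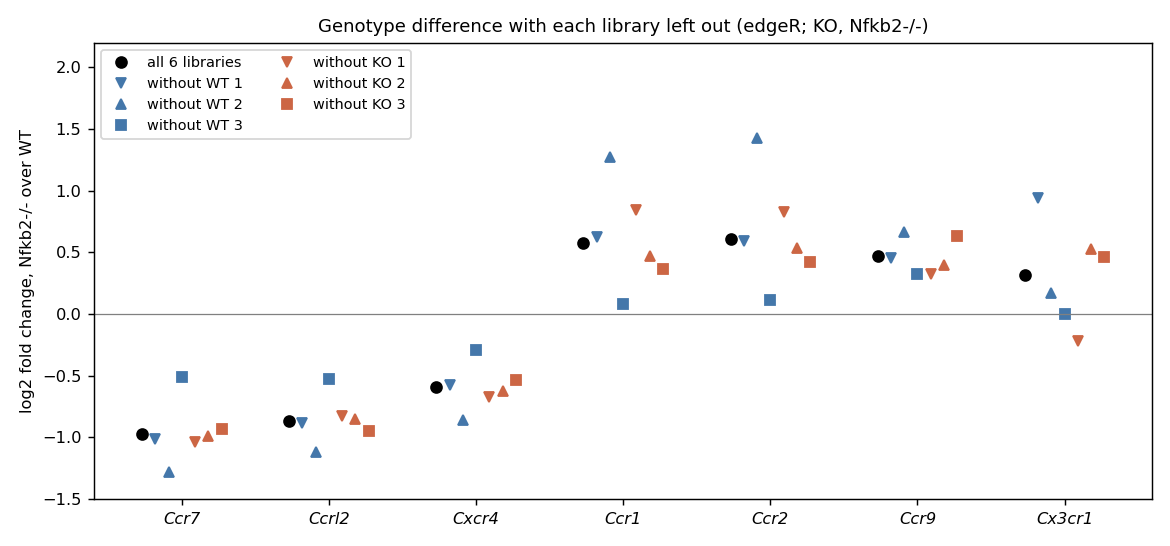
log2 fold change (Nfkb2-/- over WT, edgeR) of 7 receptors with all 6 libraries (black) and with each WT library (blue) or Nfkb2-/- library (orange, written KO) left out in turn. Leaving out WT replicate 3 moves Ccr7 from -0.97 to -0.51 and Ccr2 from 0.61 to 0.11, leaving out WT replicate 2 moves them to -1.28 and 1.42, and only Cx3cr1 crosses 0.

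Levels of different receptors were compared as CPM per kilobase of annotated exons. Ccr7 was the highest in both genotypes, at a mean of 621 in WT and 317 in Nfkb2-/-. In WT it was followed by Cxcr4 (78.3), Ccr2 (66.5) and Ccr1 (45.8), whose ranges overlapped from each to the next. In Nfkb2-/- libraries the order behind Ccr7 was Ccr2 (102), Ccr1 (68.3) and Cxcr4 (51.9), again with overlap from each to the next. Below these came Ccrl2 (4.62 in WT and 2.53 in Nfkb2-/-), Ccr9 (0.394 and 0.548), Cx3cr1 (0.257 and 0.322) and Xcr1 (0.0359 and 0.0759). Ccr9 and Cx3cr1 overlapped in both genotypes, whereas Ccr7, Ccrl2 and Xcr1 overlapped no neighbour in either.

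Of the summed CPM per kilobase of the 8 receptors, Ccr7 made up 74.5%, 55.9% and 87.8% in the WT libraries in replicate order, and 66.8%, 56.1% and 53.2% in the Nfkb2-/- libraries. The shares of Ccr1 and Ccr2 were low where that of Ccr7 was high. Ccr2 made up 1.02% in WT replicate 3 and 21.4% in WT replicate 2, and from 13.4% to 22.3% in Nfkb2-/- libraries. WT replicates 2 and 3 were thus farther apart in the Ccr7 share than WT replicate 2 was from any Nfkb2-/- library.

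**Figure D3:**
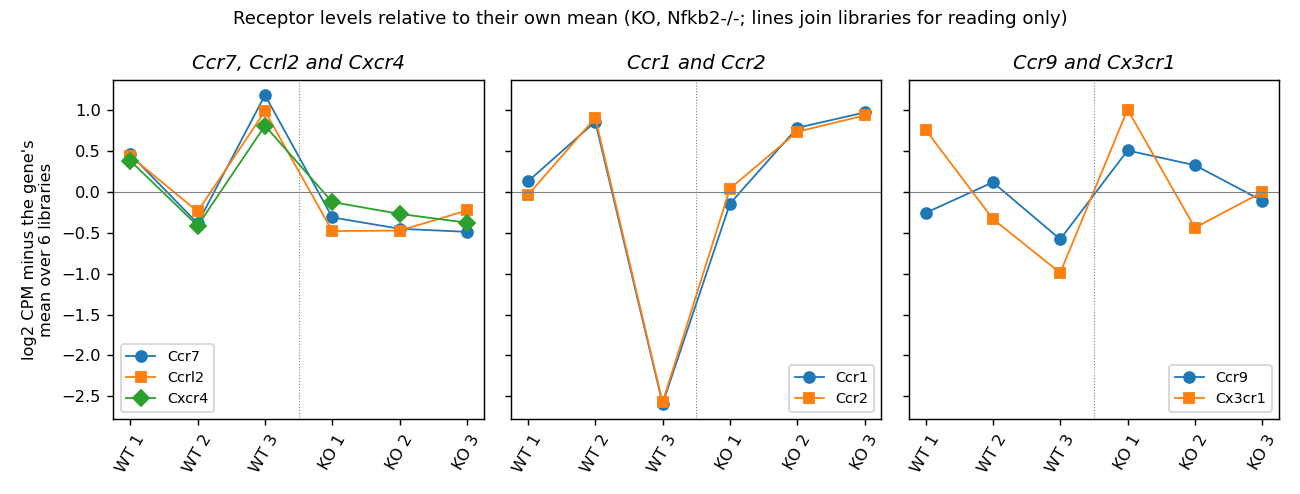
log2 CPM of 7 receptors minus each gene's mean over the 6 libraries, for the WT replicates and the Nfkb2-/- replicates (written KO). Ccr7, Ccrl2 and Cxcr4 are highest in WT replicate 3 and lower in WT replicate 2, Ccr1 and Ccr2 trace a single line that drops in WT replicate 3, and Ccr9 and Cx3cr1 are also lowest in WT replicate 3 but with a smaller drop.

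Ratios within a library, which do not depend on library size, showed how closely receptors ran together. The ratio of Ccr2 to Ccr1 stayed between 3.15 and 4.01 over the 6 libraries, although the highest WT library exceeded the lowest by 10.9 times for Ccr1 and by 11.1 times for Ccr2. The ratio of Ccr7 to Ccrl2 stayed between 81.0 and 111. By contrast, the ratio of Ccr7 to Ccr2 was 2.64, 0.764 and 25.2 in the WT libraries in replicate order and 1.46, 0.821 and 0.697 in the Nfkb2-/- libraries, a range of 36.2 times. The genotypes overlapped in this ratio (exact two-sided permutation test on log2 ratios, p = 0.3).

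The ratio of Ccr7 to Cxcr4 was the only one of 6 ratios in which the genotypes did not overlap. It was 7.91, 7.63 and 9.69 in WT and 6.57, 6.60 and 6.92 in Nfkb2-/-, so that every WT library lay above every Nfkb2-/- library. The exact two-sided permutation test gave p = 0.1, the smallest that 3 against 3 can give, and it was not adjusted for the 6 ratios examined. For the CPM of single genes, a different measure, 24.7% of all genes tested had ranges that did not overlap between the genotypes. Such a share was not computed for ratios.

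The genes most like each receptor were ranked by Pearson's r of log2 CPM over the 6 libraries, among 10641 genes whose mean reached 5 CPM. With 6 libraries that share 1 far point, WT replicate 3, high values are common, and they are given as descriptions. For Ccr7 they were Atp8b2 (r = 0.997), Tapbpl (0.997) and Cd40 (0.996), the last a costimulatory receptor of mature dendritic cells. Cd40 was at 34.2, 22.7 and 49.8 CPM in WT and at 21.7, 20.6 and 21.1 CPM in Nfkb2-/-. For Ccrl2 they were Slc9a3r1 (0.997), Rgs3 (0.994), a regulator of G protein signalling, and Sqstm1 (0.994). For Cxcr4 they were Spsb1 (0.997), Tcaf2 (0.993) and Mtor (0.992).

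Ccr2 was most like Tm6sf1 (r = 0.999) and Gm37199 (0.999). Ccr1 was most like Gm15356 (0.999), Gm37199 (0.997) and Dnase2a (0.997), a lysosomal nuclease. Gm37199 thus appeared for both receptors, at 17.5, 24.6 and 7.09 CPM in WT and 17.0, 22.4 and 23.9 CPM in Nfkb2-/-. For Ccr9 the highest were Capn15 (0.984), Bag2 (0.980) and Ttll5 (0.979). For Cx3cr1 they were Map1s (0.990), Bscl2 (0.980) and Gorasp1 (0.964).

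Mature dendritic cell genes, with which Ccr7 is known to be expressed, were compared as a list of 30. Of these, 5 passed the test as lower in Nfkb2-/- (0.682% of all genes did) and 1 as higher (0.453% of all genes), and the median log2 fold change was -0.83. Here and in the lists that follow, no gene passed when WT replicate 1 or any of the 3 Nfkb2-/- replicates was left out, since none of all genes then did. Those lower were Slco5a1 (log2 fold change -2.11), Eno2 (-2.27), Ebi3 (-1.42), Il15ra (-1.29) and Il12b (-3.09), the last 3 of which encode a cytokine subunit, a receptor that presents interleukin-15, and the p40 chain of interleukin-12. Ccl17, a chemokine that attracts T cells, was the gene that rose, at 161, 361 and 432 CPM in WT and 2385, 2472 and 2357 CPM in Nfkb2-/- (edgeR adjusted p = 0.0307). 25 of the 30 were highest in WT replicate 3, where Ccr7, Ccrl2 and Cxcr4 were highest too, against 31.9% of the genes whose mean reached 5 CPM. In 22 of the 30, as in these 3 receptors, WT replicate 2 was the lowest of the WT libraries. The sum of this list had set WT replicate 3 apart, so the count of 25 is not separate evidence for that. The part of maturation in the receptor levels was not tested.

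Of 25 monocyte and macrophage genes, 24 were tested and none passed by edgeR (1.14% of all genes did). At an unadjusted edgeR p-value under 0.05 there were 4, where 17.1% of all genes reached that value. DESeq2 called 3 (8.6% of all genes) and limma voom called 0 (2.23% of all genes). 22 of the 25 were lowest in WT replicate 3, as were Ccr1, Ccr2, Ccr9 and Cx3cr1, against 25.2% of the genes whose mean reached 5 CPM. This list's sum had also set WT replicate 3 apart, so the count of 22 is not separate evidence for that. Lyz2, the myeloid lysozyme, was at 3436, 3407 and 267 CPM in WT and 1234, 2061 and 1867 CPM in Nfkb2-/-. Csf1r, the receptor for M-CSF, was at 239, 250 and 37.2 CPM in WT and 115, 131 and 157 CPM in Nfkb2-/-. Ccr2 stood apart from both in WT replicate 1, where it was at 436 CPM against 837 CPM in WT replicate 2, while Lyz2 and Csf1r were nearly level there. The part of monocyte content in the Ccr1 and Ccr2 levels was not tested. Of the 7 cDC1 markers, 5 had a mean of at least 5 CPM, unlike Xcr1, and the list summed to between 441 and 696 CPM per library.

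The other chemokine receptors, atypical receptors and chemerin receptors formed a list of 21, of which 14 had enough counts to be tested. None passed by edgeR, with 7 at an unadjusted p-value under 0.05, all of them higher in Nfkb2-/-. Of all genes, 17.1% reached that value in either direction. DESeq2 (8.6% of all genes) and limma voom (2.23%) each called 1, Cxcr2. With all libraries, the median log2 fold change was 1.35 over the 14, against 0.39 over the 8 members and 0.08 over all genes. 6 of the 14 did not overlap between genotypes, all of them higher in Nfkb2-/- (12.7% of all genes tested were). 13 of the 20 named in the files were highest in Nfkb2-/- replicate 1, and 12 had a mean under 1 CPM. Of all genes tested with a mean under 1 CPM, 62.0% were highest in that library.

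Cxcr2, the receptor for neutrophil-attracting chemokines, was at 4.41, 12.0 and 1.31 CPM in WT and 93.1, 91.5 and 65.1 CPM in Nfkb2-/-, with no overlap. Its log2 fold change was 3.82 (SE 0.71, edgeR adjusted p = 0.0568), and it passed the test in 8 of 15 alternatives. None of the 8 members had a difference of that size. Markers of neutrophils, in which Cxcr2 is known to be expressed, summed to 171, 247 and 87.4 CPM in WT and 122, 126 and 130 CPM in Nfkb2-/-. Of the 9 markers tested, 8 had a negative and 1 a positive log2 fold change, with a median of -0.78. None of the 9 passed, where 1.14% of all genes did. Gpr35 was at 10.9, 30.4 and 7.67 CPM in WT and 34.8, 39.6 and 39.1 CPM in Nfkb2-/- (log2 fold change 1.21, SE 0.48, edgeR adjusted p = 0.252). Cmklr1, the signalling receptor for chemerin, which Ccrl2 also binds, was at 31.4, 36.4 and 5.47 CPM in WT and 20.6, 22.2 and 26.4 CPM in Nfkb2-/-.

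**Figure D4:**
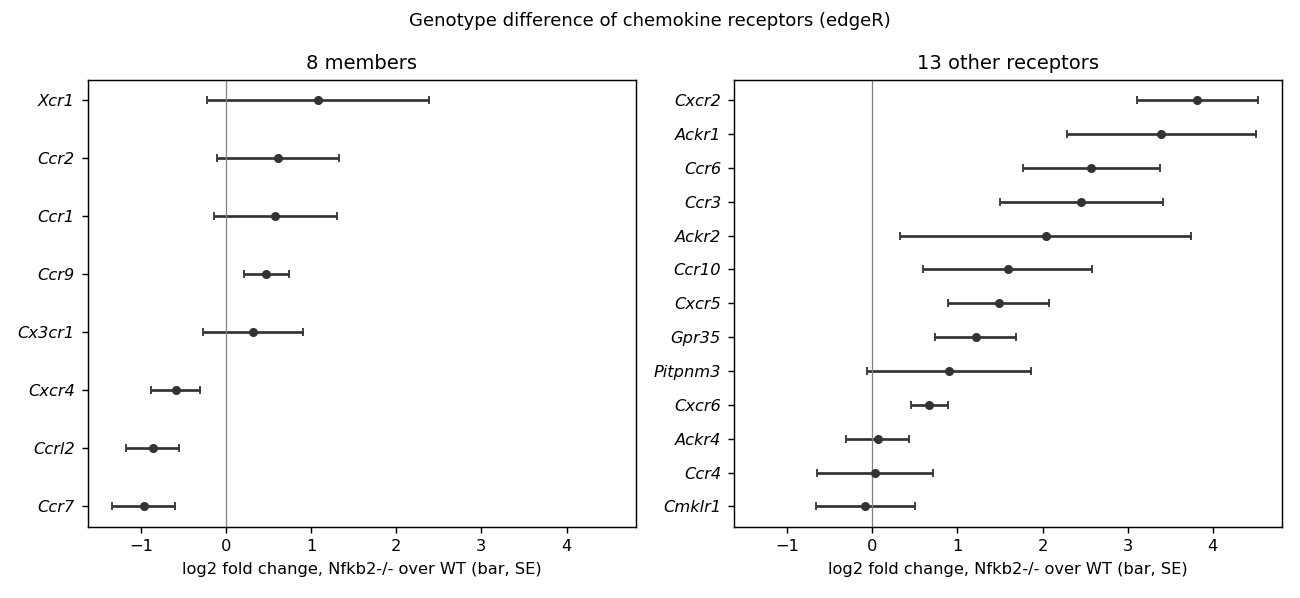
log2 fold change with SE (Nfkb2-/- over WT, edgeR) of the 8 members (left) and of 13 other receptors (right), on the same horizontal axis. The members lie between -0.97 and 1.08, and 12 of these 13 are above 0, led by Cxcr2 at 3.82.

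Ligands of the 8 receptors formed a list of 18, of which 13 were tested and 1 passed as higher (0.453% of all genes did). Mif, which binds Cxcr4, was higher in Nfkb2-/-, at 4.89, 5.48 and 3.51 CPM in WT and 12.3, 10.8 and 12.0 CPM in Nfkb2-/- (log2 fold change 1.34, SE 0.21, edgeR adjusted p = 0.0426). The Mif count is uncertain, because near-identical processed copies of this gene exist and reads on them may be split. It did not pass with total counts in place of TMM. The Ccr1 ligand Ccl6 was the most abundant, at 899, 1656 and 131 CPM in WT and 2294, 2911 and 2657 CPM in Nfkb2-/- (log2 fold change 1.55, edgeR adjusted p = 0.349). Ccl9, another Ccr1 ligand, followed, at 449, 624 and 94.3 CPM in WT and 573, 846 and 694 CPM in Nfkb2-/-.

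Ccl5, which binds Ccr1, ran the other way, at 361, 237 and 617 CPM in WT and 182, 130 and 111 CPM in Nfkb2-/- (log2 fold change -1.52, SE 0.37, edgeR adjusted p = 0.101). Cx3cl1, the ligand of Cx3cr1, was at 212, 136 and 259 CPM in WT and 111, 110 and 107 CPM in Nfkb2-/- (log2 fold change -0.89, SE 0.24, edgeR adjusted p = 0.123). Both were highest in WT replicate 3, like Ccr7. Of the 13 ligands tested, 4 had CPM ranges that did not overlap between genotypes, against 24.7% of all genes tested. Of these, 2 were higher in Nfkb2-/- (Mif and Ccl6) and 2 were lower (Ccl5 and Cx3cl1). The Ccr7 ligands were at or near 0 in these cultures. Ccl21b had no count in any library, and Ccl19 and Ccl21a had a mean under 0.1 CPM in both genotypes.

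Genes that carry the signal of chemokine receptors to the cytoskeleton, or that switch it off, formed a list of 38. All 38 were tested, and 3 passed, 2 as higher (0.453% of all genes) and 1 as lower (0.682%), or 1 in all with total counts in place of TMM. Elmo1, which with Dock2 activates Rac, was higher in Nfkb2-/-, at 93.5, 121 and 79.6 CPM in WT and 220, 233 and 218 CPM in Nfkb2-/- (log2 fold change 1.19, SE 0.18, edgeR adjusted p = 0.0420). Pik3r6, an adaptor of phosphoinositide 3-kinase gamma, was higher too, at 23.5, 38.2 and 28.6 CPM in WT and 76.1, 67.9 and 68.3 CPM in Nfkb2-/- (log2 fold change 1.23, SE 0.20, edgeR adjusted p = 0.0444). Rgs10, which shortens signalling by Gi proteins, was lower, at 272, 177 and 399 CPM in WT and 82.5, 89.5 and 90.7 CPM in Nfkb2-/- (log2 fold change -1.69, SE 0.29, edgeR adjusted p = 0.0489). The most abundant of the list, Cdc42, Rac1, Prex1 and Pik3cg, had log2 fold changes of -0.03, 0.14, -0.20 and 0.21, and none of them passed.

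6 of the 8 receptor genes lie on chromosome 9, as do 15 of the 28 listed receptors named in the files. The stretch from Ccr9 to Ccr2, chr9:123678439-124113557, holds 7 receptor genes, among them Ccr9, Xcr1, Ccr1 and Ccr2. Levels per kilobase of exons differed widely along it. Ccr1 and Ccr2 lay far above Xcr1 and Ccr1l1. WT replicate 3 was the lowest library for 5 of the 7, which were Ccr9, Ccr1, Ccr1l1, Ccr3 and Ccr2, and not for Xcr1 or Cxcr6. Ccr1l1 and Ccr3 are named after their values were seen, and Ccr1l1 had too few counts to be tested. Cxcr6, which was named for its place in the stretch after its values were seen, lies between Ccr9 and Xcr1. It was at 8.42, 10.8 and 13.5 CPM in WT and 14.9, 17.6 and 19.3 CPM in Nfkb2-/- (log2 fold change 0.67, SE 0.22, edgeR adjusted p = 0.183).

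**Figure D5:**
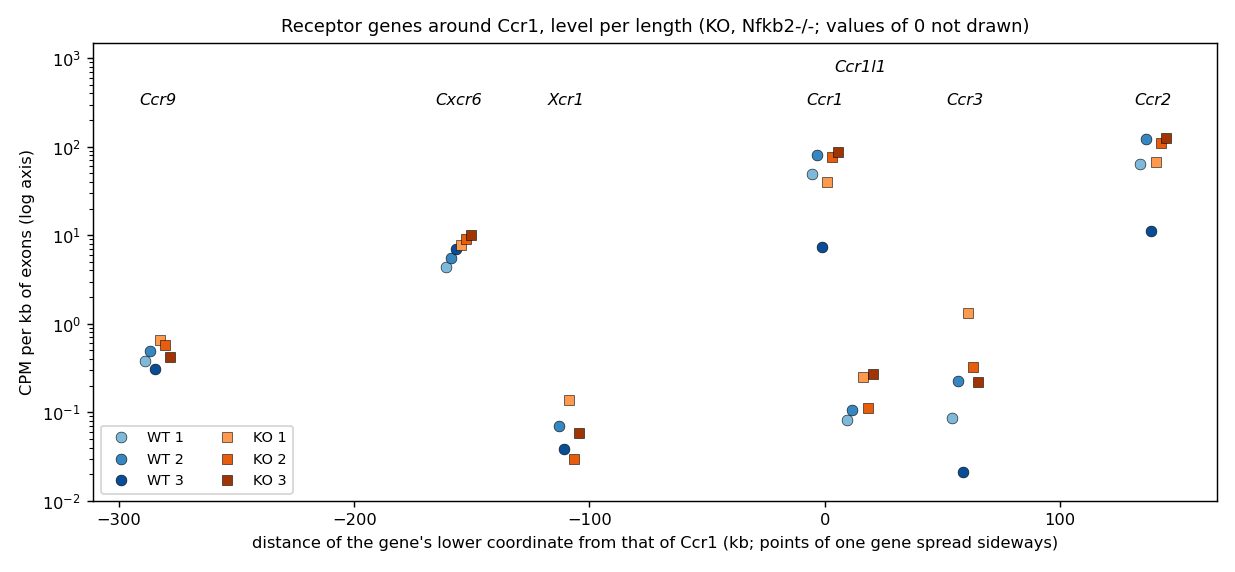
CPM per kilobase of exons (log axis) of 7 receptor genes from Ccr9 to Ccr2 in each library, against the distance in kb of each gene's lower coordinate from that of Ccr1, with WT libraries in blue and Nfkb2-/- libraries in orange (written KO). WT replicate 3 falls below the other 5 libraries at Ccr9, Ccr1, Ccr3 and Ccr2, is at 0 and not drawn at Ccr1l1, and is not the lowest at Xcr1 or Cxcr6.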

How the data were processed

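PolyA RNA of unstimulated BMDCs was sequenced from 3 WT and 3 Nfkb2-/- cultures. The authors deposited raw read counts per Ensembl gene for each library, not normalised. The submitters' processing notes name HISAT2 and GRCm38/mm10. The counting tool, the annotation and the use of strand are not given in the sources used here. A joint table with the same values was not used. Counts can thus be uncertain where genes overlap or share sequence.

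Of 56748 IDs, 52073 had a name in GENCODE M21 (GRCm38), which also gave positions and exon lengths. The other 4675, which include 2147 IDs of a later numbering, held 1.01% to 1.75% of a library's counts and stayed out of library sizes and tests. A gene was tested if its 6 libraries summed to 50 counts or more, 21849 genes in all, with R 4.3.3 and edgeR 4.0.16 (TMM, glmQLFit and glmQLFTest, genotype only). Passing required 0.05 after Benjamini-Hochberg adjustment and a difference beyond 1.2-fold. SEs were derived from the log2 fold change and the F statistic, as the former over the root of the latter. DESeq2 1.42.0 and limma 3.58.1 served as alternatives, with 15 settings in all. The fitting script was tested on simulated counts. Tables and figures used Python 3.11.15.

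Depth ran from 29863927 to 55623068 counts, so that 1 count was worth 0.0180 to 0.0335 CPM before TMM. Permutation tests were exact and two-sided. Correlations used log2 CPM with a prior count of 2, for members with a mean of at least 1 CPM against genes whose mean reached 5 CPM. Genes named are the 8 members, each list's genes that passed and up to 4 of its most abundant, the 3 genes most like each member, Nfkb2, Relb and Aldh1a2. Others are named as chosen after their values were seen. The members and lists were chosen with earlier results of these data known. Upstream sequences are from RefSeq. An item of the receptor list is not reported here.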

Additional observations from a re-analysis of the deposited data

How the results depend on the processing

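Of 113 values of the 8 receptors under the alternatives, 107 kept their direction and their side of the threshold, 3 passed it and 3 turned. The receptors that passed numbered 1 without a filter on low counts and 0 to 2 with a replicate left out. The Ccr7 difference ran from -1.28 to -0.51 with a replicate left out. Cx3cr1 (0.31) was at 0.94 without WT replicate 1 and turned to -0.0024 without WT replicate 3, to -0.22 without Nfkb2-/- replicate 1 and to -0.54 without both. Cmklr1 (-0.08) turned to 0.28 with limma voom, 0.23 with the replicate block, 0.14 or 0.32 when WT replicate 1 or 2 was left out, and stood at -0.55 when WT replicate 3 was. Over all genes, 248 passed. At an adjusted p-value under 0.1 it was 808.

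DESeq2 called 1878 of 21849 genes, with 1 of 14 other receptors, 3 of 13 ligands and 6 of 38 signalling genes. It also called 16 of 30 mature dendritic cell genes and 3 of 24 monocyte and macrophage genes. Limma voom called 488 of 21849 genes and 1 of 14 other receptors. Without a filter, 1625 of 46410 genes passed, with 3 of 20 other receptors, 6 of 17 ligands and 6 of 38 signalling genes. So did 14 of 30 mature dendritic cell genes and 5 of 25 monocyte and macrophage genes. With filterByExpr, 397 of 19238 genes and 1 of 12 other receptors passed. With at least 10 counts in every library, 459 of 16284 genes passed, with 1 of 9 other receptors and 10 of 30 mature dendritic cell genes. With total counts in place of TMM, 247 of 21849 genes passed, with 0 of 13 ligands and 1 of 38 signalling genes. Without WT replicate 3 and Nfkb2-/- replicate 1, chosen after seeing the data, 908 of 18703 genes passed. Among them were 1 of 12 other receptors, 2 of 12 ligands and 5 of 37 signalling genes. They also held 10 of 30 mature dendritic cell genes and 6 of 24 monocyte and macrophage genes. The cause of these changes was not tested.

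With a replicate left out, counts ran from 0 to 1248 for all genes, 0 to 2 for other receptors, 0 to 4 for ligands, 0 to 5 for signalling genes, 0 to 18 for mature dendritic cell genes and 0 to 2 for monocyte and macrophage genes. Cases in which none passed were those without WT replicate 1 or any Nfkb2-/- replicate. The 1248 were without WT replicate 2, of 21275 genes tested. The 2 monocyte and macrophage genes passed without WT replicate 3, where 270 of 21341 genes did. Leaving out a replicate left 2 libraries in its genotype. With the replicate number as a block, 0 genes passed, hence 0 ligands, 0 signalling genes and 0 mature dendritic cell genes, and Ccr7 was at -0.83. Deviations of same-numbered libraries correlated at 0.138, 0.0597 and 0.0197, and those of unlike-numbered libraries at -0.147 to 0.0779. With so few libraries, these values cannot decide whether the numbers pair the libraries. Xcr1 was not tested in 7 alternatives for low counts. A count was worth at most 0.0335 CPM, and Xcr1 had at most 21 counts in a library.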

Other observations

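Relb, whose product pairs with p52, was at 201, 119 and 260 CPM in WT replicates 1, 2 and 3 and at 140, 106 and 119 CPM in the Nfkb2-/- replicates (log2 fold change -0.67, SE 0.28, edgeR adjusted p = 0.290). Like Ccr7, Ccrl2 and Cxcr4, it was highest in WT replicate 3, and WT replicate 2 lay among the Nfkb2-/- libraries.

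Markers of other cells the cultures could hold were summed per library. Among conventional dendritic cell lists, cDC1 markers summed to 504, 441 and 596 CPM in WT and 696, 654 and 690 CPM in Nfkb2-/-, and cDC2 markers to 1493, 1691 and 1700 CPM in WT and 2096, 2302 and 2267 CPM in Nfkb2-/-. The most abundant genes weigh most in such sums. Of the 7 cDC1 markers, 4 had a positive and 3 a negative log2 fold change. Of the 7 cDC2 markers, 5 were positive and 2 negative. None of either list passed, where 1.14% of all genes did. Plasmacytoid markers summed to 185 to 209 CPM in WT and 190 to 237 CPM in Nfkb2-/-. Eosinophil markers summed to 22.3, 69.9 and 10.7 CPM in WT and 89.1, 108 and 90.5 CPM in Nfkb2-/-, and were lowest in WT replicate 3, as Ccr1 and Ccr2 were. Mast cell or basophil markers summed to 9.36 to 15.4 CPM in WT and 6.86 to 7.74 CPM in Nfkb2-/-, and Cpa3, a mast cell protease, passed the test as lower (log2 fold change -1.84, SE 0.28, edgeR adjusted p = 0.0413). Stromal markers summed to 68.2, 22.2 and 3.37 CPM in WT and 31.8, 22.2 and 10.6 CPM in Nfkb2-/-. T and NK cell markers summed to 0.677 to 1.11 CPM in WT and 1.16 to 6.17 CPM in Nfkb2-/-, and B cell markers to 0.619 to 1.63 CPM in WT and 0.791 to 6.74 CPM in Nfkb2-/-, with Nfkb2-/- replicate 1 the highest in both. Dendritic cell markers summed to 8531, 6651 and 12922 CPM in WT and 11203, 10019 and 10804 CPM in Nfkb2-/-. Of these 10 markers, 5 had a positive and 5 a negative log2 fold change, with a median of -0.03. Only Itgax, which encodes CD11c, passed the test, as higher in Nfkb2-/- (log2 fold change 1.99, SE 0.30, edgeR adjusted p = 0.0414). Over all genes, 0.453% passed as higher. The part of these cell types in the receptor levels was not tested.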
